A study of Mus musculus with 8 samples.

Results

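Replication-dependent histone genes encode the bulk of the core histones (H2A, H2B, H3, H4) and the linker histone H1 that package newly made DNA. They were taken as every gene whose name begins with Hist1h, Hist2h, Hist3h or Hist4h, and 66 of the 19429 genes measured met this rule. The prefix names the cluster in which a gene lies, and the letters after it name the histone. By cluster the 66 genes comprised 53 Hist1 genes, 10 Hist2 genes, 2 Hist3 genes and 1 Hist4 gene. By histone they comprised 6 H1, 19 H2A, 16 H2B, 12 H3 and 13 H4 genes. In the annotation 65 of them are protein-coding and 1, Hist1h2al, is a processed pseudogene.

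The genes were measured by RNA-seq in the mouse embryonic stem cell line LF2, in which both alleles of Tet1 had been edited with CRISPR-Cas9 so that TET1, an enzyme that oxidises methylated cytosine in DNA, has a FLAG tag at its C-terminus. The study compared wild-type TET1 (WT, lines 2 and 5) with D2018A (lines 7 and 8), a substitution of an aspartate by alanine that weakens binding of TET1 to the O-GlcNAc transferase OGT, and sequenced 2 technical replicates of each line, or 8 libraries. Each line grew from a single cell, all were cultured with LIF and serum, and the WT cells carry a large deletion that the D2018A cells lack. The gene values used here are the authors' mean normalised counts over all libraries of their fit. That fit held 12 libraries, and what the 4 beyond the 8 described are is not given in the sources used here. Whether the levels are those of WT and D2018A cells alone is therefore not known. The deposited table holds no value for a single library, and WT and D2018A were not compared here.

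Most messenger RNAs end in a poly(A) tail, but those of the replication-dependent histone genes do not. They end just after a short stem-loop that is bound by the stem-loop binding protein SLBP, and the pre-mRNA is cut downstream of it with the help of the U7 small nuclear RNP. Their mRNAs accumulate while DNA is copied in S phase and are degraded when replication stops. Embryonic stem cells cycle quickly and spend much of their time in S phase. The RNA was depleted of ribosomal RNA instead of being selected for poly(A), so transcripts without a tail were not removed by a selection step.

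The smallest means of the table fell on 12 steps, each the value of a single read in 1 library, which gives the count of 12 libraries in the authors' fit. The size factors read from these steps, which measure relative depth, ran from 0.726 to 1.47. The means summed to 10937569 normalised counts over all genes, and a mean of 10 therefore stands for about 120 normalised reads over the 12 libraries. All 7 markers of embryonic stem cells were high, from 520 normalised counts per kb of exon for Zfp42 to 3817 for Esrrb. The fibroblast collagen genes Col3a1 and Col1a2, markers of feeder cells, had means of 0.0930 and 0.689, and the other 2 measured fibroblast markers had means of 115 (Col1a1) and 194 (Thy1). Of the trophectoderm markers, Elf5 and Cdx2 had means of 1.13 and 1.49 and Eomes a mean of 199. Of the primitive endoderm markers, Sox17, Gata6 and Gata4 had means of 10.2, 17.6 and 76.8. Thy1, Eomes, Gata4 and Col1a1, at 64.8, 47.8, 19.7 and 17.5 per kb of exon, lay above the median of all genes, which was 17.1.

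The stem-loops are shown first, because they are the sequence feature that sets these mRNAs apart and the rule did not use it. A stem-loop pattern (6 paired bases beginning with 2 G, a loop of 4 bases, and the complementary 6 bases) was searched in the 200 annotated bases after the stop codon, and 44 of the 66 genes held it. Of 21762 protein-coding genes in the annotation 55, or 0.253%, held the pattern, and 11 of these are no member of the set. Among the 11 are Hist1h2bh and Hist1h2bm, whose names meet the rule but which were not among the genes measured. H2bfm is another, as is H2afx, which encodes the variant H2A.X and is known to make transcripts of both kinds. The rest are AA986860, Bap1, Capn6, Gm9918, Ly6f, Slc23a4 and Ss18, none of them named as a histone gene. The capitals mark the 6 bases on each side that pair, and the bases in lower case form the loop:
the version of 24 genes of the H1, H2A, H2B and H3 classes: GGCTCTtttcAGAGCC
the version of 6 genes of the H1, H2B and H3 classes: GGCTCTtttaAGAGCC
the version of Hist2h2ac: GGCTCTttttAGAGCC
the version of Hist1h3g: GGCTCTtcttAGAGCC
the version of 7 H4 genes: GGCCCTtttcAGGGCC
the version of Hist1h4i and Hist2h4: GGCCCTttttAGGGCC
the version of Hist1h4a: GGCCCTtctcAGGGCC
the version of Hist1h4j and Hist1h4b: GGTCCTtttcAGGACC

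The 8 versions split by histone class in their stems. Every H4 stem-loop differed in its stem from every stem-loop of the other 4 classes, which all shared the same stem. The most frequent version, in 24 genes, belonged to genes that made up 46.4% of the summed mean of the set. The most frequent H4 version, in 7 genes, belonged to genes with 9.36% of it. The stem-loop began between 22 bases (Hist2h2ac) and 59 bases (Hist2h2aa1 and Hist2h2aa2) after the stop codon, with a median of 32.5 bases.

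Of the 22 genes in which no stem-loop was found, 17 have annotated transcripts that end within 50 bases of the stop codon, 13 of them at the stop codon itself. The sequence beyond these ends was not searched. These 17 include highly expressed genes such as Hist1h1a, Hist1h2ak and Hist1h3i. The pseudogene Hist1h2al has no annotated stop codon. The remaining 4 genes, Hist1h2bc, Hist1h2bq, Hist1h2br and Hist2h2be, have longer annotated ends, of 742, 1608, 1803 and 2192 bases, with no match in the bases searched. All but Hist2h2be have annotated transcripts with several exons, and bases spliced out of these transcripts were not searched. Annotated ends also ran on past the stem-loop: in 22 of the 44 genes the transcript continued for at least 100 bases, and in Hist1h1d for 4884 bases. Annotated exon length therefore depends on how far each gene model runs past the stop codon. Levels are given below per kilobase of exon and, where named, per kilobase of coding sequence. The latter divides the same mean, with any reads from untranslated bases, by the coding length alone. Reads past the stop codon can thus raise it in genes with long annotated ends, while 13 genes have no annotated bases there. The median level per kb of coding sequence was 2089 normalised counts in genes with the stem-loop and 2238 in genes without it.

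The 66 genes held 0.730% of the summed mean while making up 0.340% of the genes. A mean of at least 10 was reached by 57 of them (86.4%), against 66.3% of all genes, and a mean of at least 1000 by 28 (42.4%), against 12.4% of all genes. Expressed per kb of exon, the median gene of the set had 892 normalised counts and the median of all genes was 17.1. In the set 56 genes lay above the median of all genes and 10 below it. Of the levels of all genes, the highest 1% included 26 members of the set and the highest 10% included 42. The 10 highest members supplied 52.8% of the set's summed mean. The lower end was as wide, and 9 genes had a mean under 10.

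**Figure D1:**
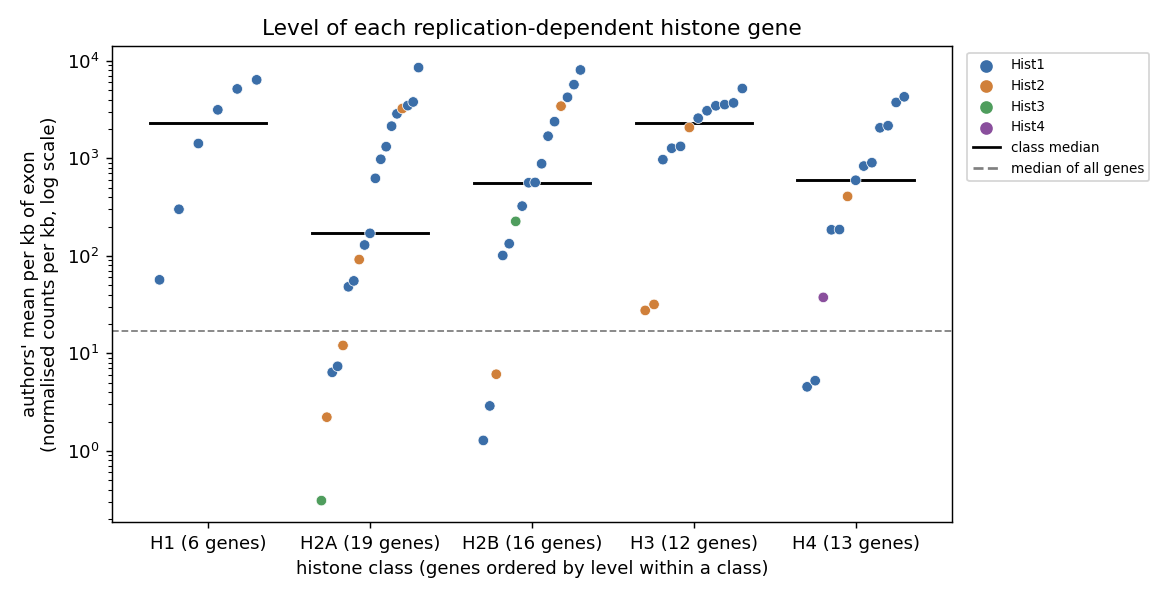
Each point is a gene of the 5 histone classes, coloured by cluster, and the vertical axis gives the authors' mean per kb of exon on a log scale. Black bars are class medians, from 170 (H2A) to 2327 (H3), and the dashed line is the median of all genes, 17.1, below which 10 genes lie.

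The linker histone H1 binds where DNA enters and leaves the nucleosome. Hist1h1c had the highest mean of the whole set, 9962 normalised counts or 6386 per kb of exon, and alone supplied 47.1% of the mean summed over the H1 genes. It was followed per kb of exon by Hist1h1a with 5154, Hist1h1b with 3146 and Hist1h1e with 1419. Hist1h1d, whose annotated exon is 7425 bases long, was at 300.4 per kb of exon and at 3349 per kb of coding sequence, close to Hist1h1b at 3478 on the latter scale. The testis-specific linker histone gene Hist1h1t was the lowest H1 gene, with a mean of 51.8 normalised counts and 56.8 per kb of exon.

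H2A genes had the widest range of levels. Hist1h2ak reached 8530 normalised counts per kb of exon, the highest level per kb of exon in the set from an annotated exon without untranslated bases, and Hist3h2a was at 0.309, the lowest. After Hist1h2ak came Hist1h2af with 3787, Hist1h2ai with 3475 and Hist2h2ac with 3245. The class median was 170, and 5 of its 19 genes lay below the median of all genes. These were Hist1h2ao, Hist1h2ap, Hist2h2aa1, Hist2h2aa2 and Hist3h2a. The pseudogene Hist1h2al, which lies on chromosome 13 far from the clusters, had a mean of 18.8.

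Among H2B genes Hist1h2bg stood highest, with a mean of 4985 normalised counts and 8066 per kb of exon, and supplied 31.0% of the class. Hist1h2bb had 5706 per kb of exon, Hist1h2bl 4228 and Hist2h2bb 3431. The lowest was Hist1h2br, with 1.28 per kb of exon and a mean of 2.83. The germline variant genes Hist1h2ba and Hist1h2aa, which encode the testis-enriched TH2B and TH2A, had means of 38.7 and 18.8. These levels were above the median of all genes, at 101 and 48.2 per kb of exon, and well below the class leaders.

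All 12 H3 genes had a mean of at least 10, and 10 of them lay between 970 (Hist1h3f) and 5206 (Hist1h3a) per kb of exon. Hist1h3b had 3704 per kb, Hist1h3i 3559 and Hist1h3e 3461. The highest mean in the class belonged to Hist1h3d, with 3844 normalised counts. The 2 that stood apart were Hist2h3c2 with 31.8 and Hist2h3c1 with 27.6 per kb of exon. All exon bases of Hist2h3c1 also lie in exons of another annotated gene on the same strand, Gm20634.

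Of the H4 genes Hist1h4d stood highest, with a mean of 4869 normalised counts, 4279 per kb of exon and 43.8% of the class. Hist1h4a had 3745 per kb of exon, Hist1h4f 2162 and Hist1h4h 2058. Hist1h4d and Hist1h1c had almost equal levels per kb of coding sequence, 15607 and 15591, the highest pair of the set on that scale. Their annotated transcripts run 822 and 880 bases past the stop codon, and any reads there are part of these levels. The lowest were Hist1h4m and Hist1h4n, with means of 2.11 and 1.95. The order of neighbouring genes within any class could not be set against an error, since each gene has a single value.

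A nucleosome holds equal numbers of H2A, H2B, H3 and H4 molecules, but read totals also follow transcript length and the share of sequence that can be assigned to a gene. Summed by class, H1 held 26.5% of the normalised counts of the set, H3 22.9%, H2B 20.1%, H2A 16.6% and H4 13.9%. Summed per kb of coding sequence, the same classes held 17.3%, 23.6%, 22.3%, 17.9% and 18.9%. H1 was therefore the first class by counts and the last per kb of coding sequence. Without Hist1h1c the H1 share of the counts was 15.99%. The 5 classes lay between 17.3% and 23.6% per kb of coding sequence. They were closer together there than on the scales of counts (13.9% to 26.5%) and of exon length (13.4% to 24.6%). Any reads from untranslated bases remain in the sums on each of these scales, and their part in the shares was not tested.

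**Figure D2:**
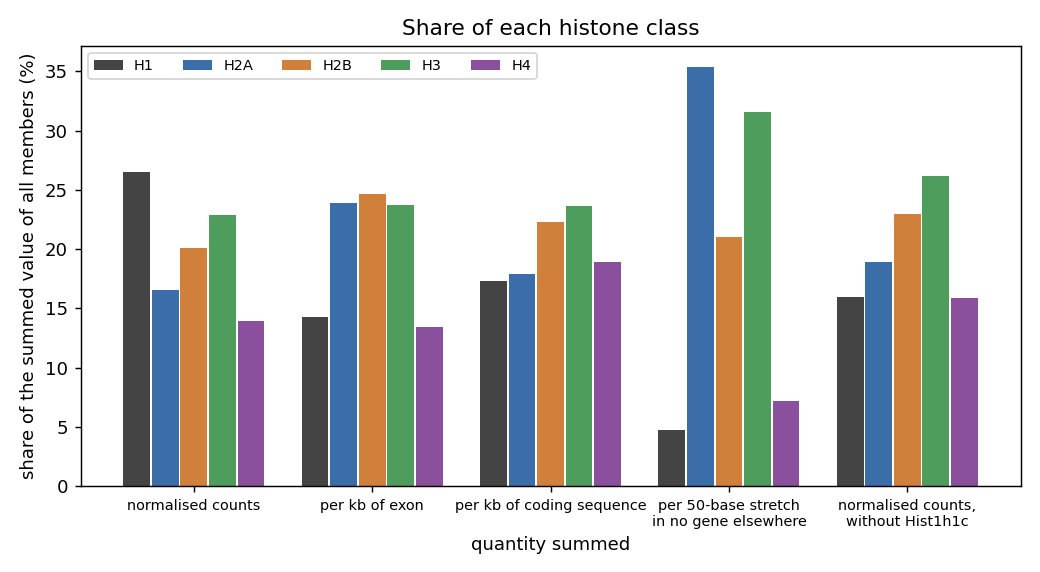
Bars give the share of each histone class, in percent of the summed value of the set, for 5 quantities. H1 is at 26.5% of the normalised counts and 17.3% per kb of coding sequence, and per 50-base stretch found in no annotated gene at another place in the genome the H2A class is at 35.4% and H1 at 4.78%.

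By cluster, Hist1 held 93.7% of the summed mean, Hist2 6.03%, Hist3 0.174% and Hist4 0.134%. The 53 Hist1 genes lie on chromosome 13, where gaps of over 100 kb separate them into blocks. The largest, chr13:23531050-23764406, spans 233 kb and holds 28 genes and 75.2% of the summed mean, and 20 of the 28 had a mean of at least 1000. Its levels per kb of coding sequence ran from 82.2 (Hist1h1t) to 15607 (Hist1h4d) with a median of 3611. The block chr13:21715763-21837530 holds 17 genes and 14.97% of the summed mean, with 5 genes at a mean of at least 1000. The 5 genes of the block chr13:22035164-22043676 held 3.37%, and none of them reached 1000. A short block at chr13:23933773-23934851 holds the germline variants Hist1h2ba and Hist1h2aa and 0.0720%.

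In the block of 17 genes high and low genes were not mixed evenly. The 6 genes at the far end of it, Hist1h2bq, Hist1h2ao, Hist1h4m, Hist1h4n, Hist1h2ap and Hist1h2br, had means between 1.95 and 5.82. The other 11 had means between 50.8 (Hist1h2bn) and 3352 (Hist1h2ak). The 6 low genes form 2 copies of an H2A, H2B and H4 group, and each shares most of its sequence with its partner in the other copy. Of the 50-base stretches in Hist1h2ao 93.5% were also in Hist1h2ap, of those in Hist1h2bq 97.3% were also in Hist1h2br, and of those in Hist1h4m 89.8% were also in Hist1h4n.

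The Hist2 cluster lies at chr3:96219865-96270132 and its 10 genes split into 4 high and 6 low ones. Hist2h2ac had a mean of 1687 normalised counts, Hist2h2bb of 1307, Hist2h3b of 1011 and Hist2h4 of 663. Hist2h3c1 had a mean of 50.3, Hist2h2ab of 40.7, Hist2h3c2 of 32.4 and Hist2h2be of 16.003. Hist2h2aa2 and Hist2h2aa1, neighbours that are copies of each other, had means of 6.36 and 1.30. In the Hist3 cluster on chromosome 11 the H2B gene Hist3h2ba had a mean of 139 and the H2A gene Hist3h2a a mean of 0.663. Hist4h4, the single gene of its cluster on chromosome 6, had a mean of 107 and 37.5 per kb of exon, with 344 per kb of coding sequence.

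**Figure D3:**
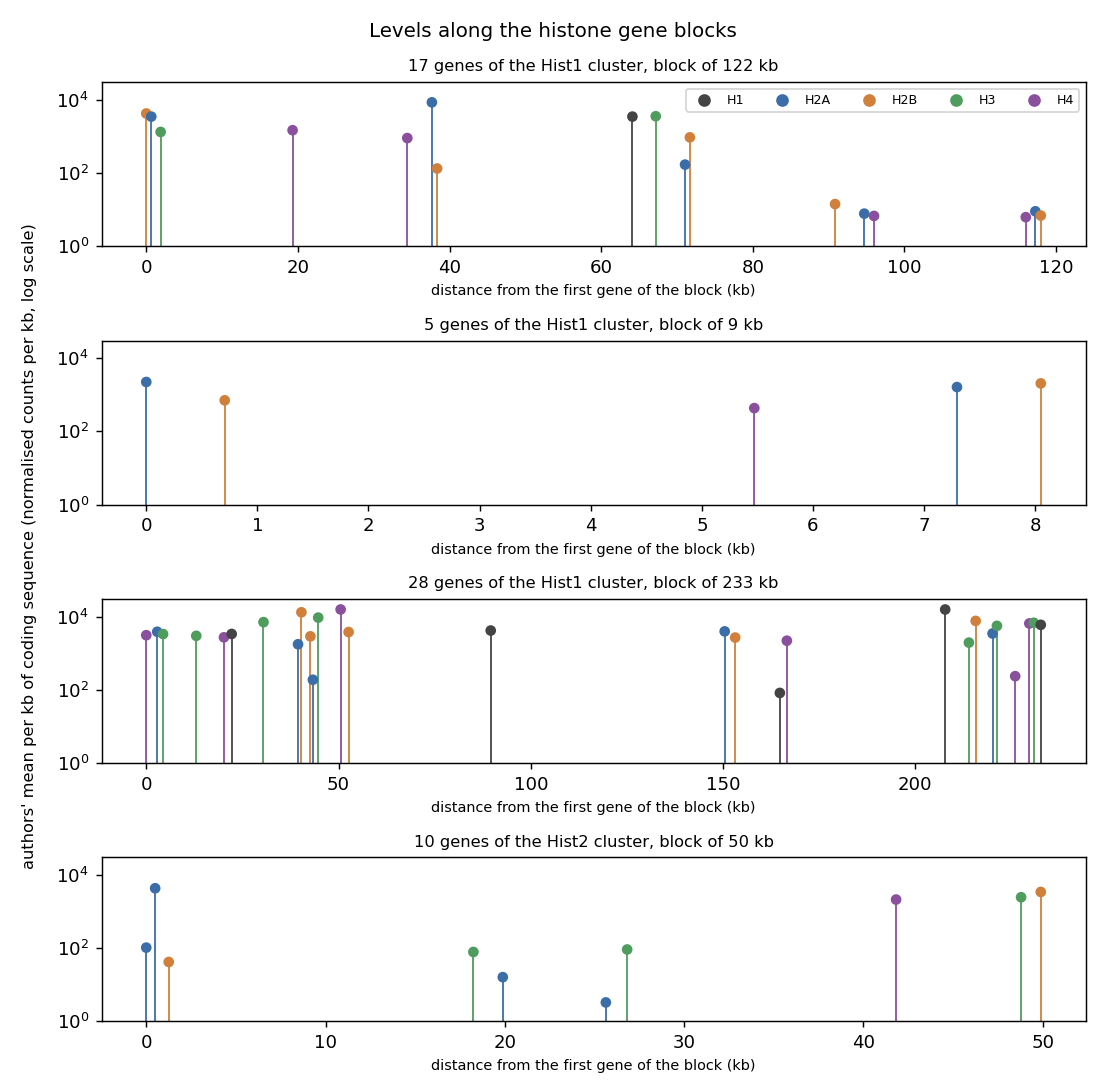
Each line is a gene at its distance in kb from the first gene of its block, and its height is the authors' mean per kb of coding sequence on a log scale, for the 4 blocks of at least 5 genes. The 6 genes at the end of the block of 17 stand at 14.2 or lower, and in the block of 28 genes 1 gene is under 100.

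H2A and H2B genes are often arranged head to head, with a shared region between their starts. There were 12 such pairs within 500 bases of each other, every one of an H2A and an H2B gene, with between 175 and 305 bases between the partners. Despite the short region between them, partners had unequal levels in many pairs. Per kb of coding sequence the higher partner exceeded the lower by 1.22-fold (Hist1h2bl over Hist1h2ai) to 103-fold (Hist2h2ac over Hist2h2be), with a median of 2.63-fold. The H2A gene was the higher in 5 pairs and the H2B gene in 7. Per kb of exon the ratios ran from 1.22-fold to 531-fold, for the same pairs at each end, with a median of 3.54-fold. In 2 pairs the higher partner was another on that scale, with Hist1h2bc (881) over Hist1h2ac (624) and Hist1h2ao (6.39) over Hist1h2bq (2.89).

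At the unequal end, Hist2h2ac was at 4327 and Hist2h2be at 42.0 normalised counts per kb of coding sequence. Hist1h2ak was at 8530 and its partner Hist1h2bn at 133, a ratio of 64.0. Hist1h2bf was at 2881 and Hist1h2ad at 188, and Hist1h2bg was at 13083 and Hist1h2ae at 1752. At the even end, Hist1h2bj was at 2052 and Hist1h2ag at 1626, and Hist1h2ac was at 3938 and Hist1h2bc at 2673. The shares of 50-base stretches found in no annotated gene at another place in the genome differed within some pairs as well. They were 47.7% for Hist1h2ak and 13.6% for Hist1h2bn, but 61.4% for Hist2h2ac and 100% for the lower partner Hist2h2be.

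**Figure D4:**
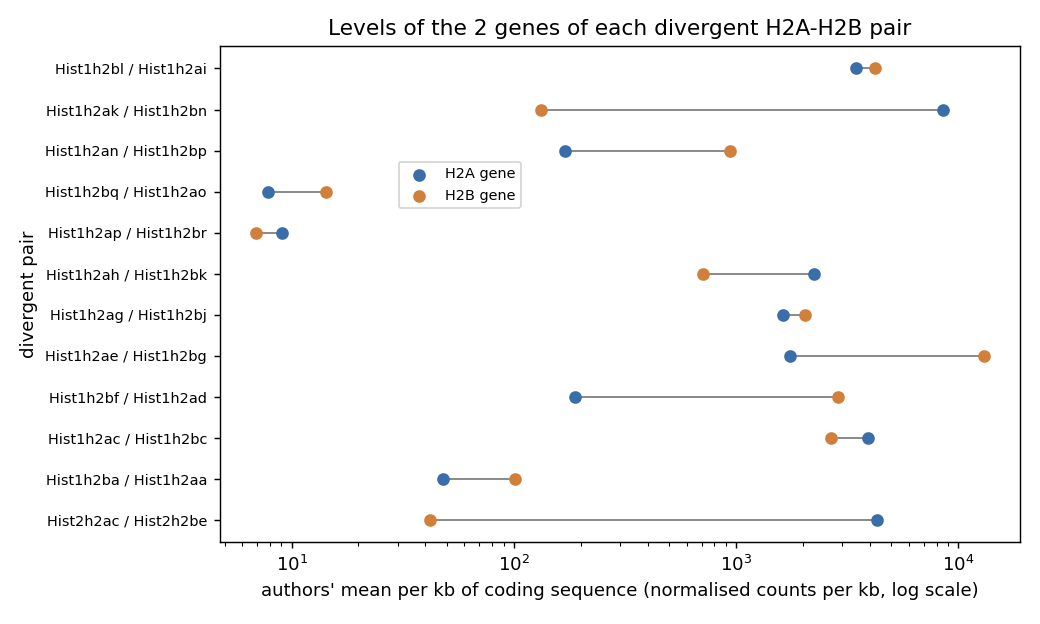
Each row is a divergent pair, with the H2A gene in blue and the H2B gene in orange at its authors' mean per kb of coding sequence on a log scale. The line between partners is shortest for Hist1h2bl and Hist1h2ai (1.22-fold) and longest for Hist2h2ac and Hist2h2be (103-fold).

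Histone genes are similar enough that a read of 50 bases can match several of them, which limits how far a level can be assigned to 1 gene. Each gene was cut into all its 50-base stretches, and those absent from every annotated gene elsewhere were counted. Genes that overlap the gene's own place in the genome were left out of this search, and shared exons are given separately. Of the 66 genes 35 had at least 50% of their stretches in no gene elsewhere, 15 had under 20%, and Hist2h2aa2 had none. By this measure the H1 genes were the most distinct, with 91.5% to 100% of their stretches in no gene elsewhere, while the class medians were 32.4% for H2A, 42.8% for H3, 53.1% for H2B and 60.5% for H4.

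The 15 genes with under 20% of such stretches included 8 of the 9 genes with a mean under 10. They also included genes with high means, up to 1611 for Hist1h2bl and 1463 for Hist1h3i. None of the 16 genes with 20% to 50% and none of the 19 with 50% to 80% had a mean under 10, and of the 16 with over 80% the only one was Hist3h2a, which shares 33.0% of its exon bases with the overlapping gene Trim17. The median level per kb of coding sequence was 16.2 in the 15 least distinct genes, 2460 and 2673 in the next groups, and 3390 in the most distinct. STAR's own gene counts leave out reads that align to several places, and the counting options the authors used are not given in the sources used here. The part of shared sequence in the low means was not tested.

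**Figure D5:**
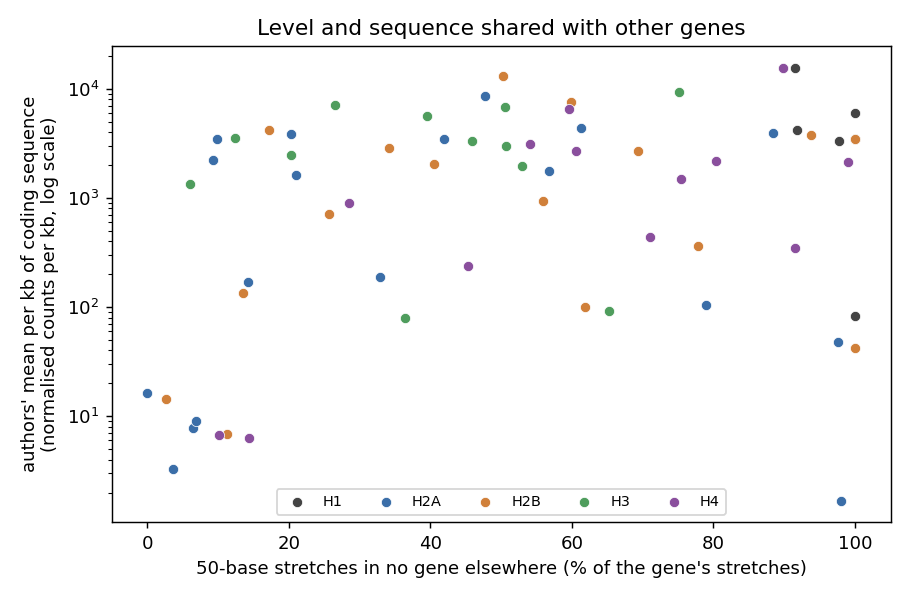
Each point is a gene with a coding sequence, coloured by class, placed by the share of its 50-base stretches found in no annotated gene elsewhere and by the authors' mean per kb of coding sequence on a log scale. Of the 15 genes under 20%, 8 have a mean under 10 normalised counts, and at the other end Hist3h2a lies low at 98.0%, a share that leaves out its overlap with Trim17.

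Exons of 25 of the 66 genes overlapped exons of another annotated gene. In 18 H2A genes this was a predicted miRNA gene on the opposite strand. The H2B gene Hist1h2be and the H1 gene Hist1h1e share 496 exon bases on the same strand, so reads there cannot be assigned to either. Whether such reads were counted in their means of 1439 and 2740 or left out is not given in the sources used here. Hist2h3b and Hist2h2bb are wholly covered by the antisense gene Gm20628, which had a mean of 2.55 against 1011 and 1307. In the overlaps of Hist3h2a with Trim17 and of Hist2h2aa1 with Gm20633 the histone gene had the lower mean. Hist3h2a, with a mean of 0.663, shares 708 exon bases on the same strand with Trim17, which had 5.01. Hist2h2aa1, with a mean of 1.30, is wholly covered by the antisense gene Gm20633, which had 14.6. Gm20634, on the same strand, covers 90.3% of the exon bases of Hist2h2aa1 and 100% of those of Hist2h3c1. No mean was found for Gm20634, and its part in the low means of these 2 histone genes was not tested. Hist2h2bb, with 1307, also shares 59.3% of its exon bases on the same strand with Gm42743, which had 5.01. Hist2h2ab and Hist2h2aa2, with 40.7 and 6.36, were above the overlapping antisense genes Gm15444 and Gm20632, with 0.205 and 0.508. The sources do not state that counting used strand, and without it reads of overlapping genes cannot be told apart.

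The promoters of the classes carried different known motifs. RefSeq promoters of GRCm38.p6, from 250 bases before to 50 bases after the start, were matched to 60 of the 66 genes. CCAAT, on either strand, was in all 6 H1, 18 H2A, 14 H2B and 10 H3 promoters but in only 3 of 12 H4 promoters (25.0%), against 37.4% of all 32851 promoters of the table. TATAAA was in 35 of 60 promoters (58.3%), with 40.0% in H3 and 66.7% in H1 and H4, against 13.6% of all promoters. These matches were on either strand and at any place in the window. Where TATAAA lay before the start, the nearest was a median of 21.5 bases from it in H1, 25.5 in H3 and 27.0 in H2A. The median was 121.5 bases in H4 and 136 in H2B. The octamer ATTTGCAT, the site of OCT factors, was in 7 of 18 H2A and 5 of 14 H2B promoters and in none of the H1, H3 and H4 promoters, against 1.74% of all promoters. The windows of head-to-head H2A and H2B genes can overlap, so a motif between them can be counted in both classes. Hist1h2ae and Hist1h2bg share the same octamer site. So do Hist1h2ah and Hist1h2bk, and Hist1h2aa and Hist1h2ba. AAACACA, known as the H1 box, was in 5 of 6 H1 promoters, in 3 of the other 54 and in 7.18% of all promoters.

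The 150 bases before the RefSeq start are shown for the gene of each class with the highest level among those with a matched promoter, except that Hist1h3i stands for H3, since 78 bases of the window of Hist1h3b lie inside that gene as deposited, against 4 bases for Hist1h2bg and none for the others shown. Capitals mark these 4 motifs on either strand:
Hist1h1c, chr13:23738657-23738806, plus strand: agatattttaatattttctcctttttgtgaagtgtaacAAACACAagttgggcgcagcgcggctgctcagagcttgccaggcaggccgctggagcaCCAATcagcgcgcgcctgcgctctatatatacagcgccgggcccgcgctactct
Hist1h2ak, chr13:21753913-21754062, minus strand: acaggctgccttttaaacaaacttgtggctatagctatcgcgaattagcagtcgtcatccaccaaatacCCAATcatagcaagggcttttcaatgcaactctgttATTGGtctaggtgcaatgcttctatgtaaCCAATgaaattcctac
Hist1h2bg, chr13:23571250-23571399, plus strand: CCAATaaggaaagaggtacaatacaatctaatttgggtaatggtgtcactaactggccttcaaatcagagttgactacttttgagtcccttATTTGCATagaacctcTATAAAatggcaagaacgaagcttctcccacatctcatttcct
Hist1h3i, chr13:21783398-21783547, minus strand: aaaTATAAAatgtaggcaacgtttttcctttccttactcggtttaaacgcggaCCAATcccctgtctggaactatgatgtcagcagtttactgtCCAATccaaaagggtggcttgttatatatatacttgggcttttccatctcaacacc
Hist1h4d, chr13:23581418-23581567, plus strand: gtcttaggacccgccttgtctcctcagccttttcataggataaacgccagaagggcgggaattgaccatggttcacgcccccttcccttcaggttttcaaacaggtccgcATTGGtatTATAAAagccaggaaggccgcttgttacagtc

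In these windows the H1 promoter holds the H1 box 105 bases before the start, and the H2B promoter holds the octamer and then TATAAA, 51 and 37 bases before it. Hist1h2ak has no octamer or H1 box, its CCAAT nearest the start lies 11 bases before it, and its TATAAA lies outside the bases shown. A match to a motif is a description of these letters and was not set against the levels.

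Genes that act with the histone genes were measured as well, from lists of related factors. Of 15 genes of replication-independent histones, whose mRNAs are mostly polyadenylated and made throughout the cell cycle, 12 were in the table and 10 of them lay above the median of all genes. Their median was 159 normalised counts per kb of exon, against 892 in the replication-dependent set, and together they held 0.132% of the summed mean. They ran from 0.257 per kb for H2bfm to 5159 for H2afx, both genes outside the set that hold the stem-loop pattern. Sequence shared with genes elsewhere was measured only in the replication-dependent set. Its part in the contrast of 159 with 892 was not tested.

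All 21 genes of histone mRNA synthesis, 3′ end processing and decay were in the table, and 20 lay above the median of all genes. Slbp, whose protein binds the stem-loop, was at 175 normalised counts per kb of exon, and Npat, the coactivator of histone gene transcription, at 180. The list ran from 4.13 per kb (Snrpf) to 888 (Snrpb), both genes of Sm ring proteins. The 17 histone chaperones all lay above the median, from 34.2 per kb for Hira, which deposits H3.3, to 1266 for Rbbp4, a subunit of the replication-coupled assembly factor CAF-1. The 19 DNA replication genes did so too, from 26.4 per kb for Ccne2, a cyclin, to 2179 for Rrm2, a ribonucleotide reductase subunit. Of the 66 histone genes 21 exceeded Rrm2 per kb of exon. Shared sequence was not measured for the genes of these lists, and its part in levels such as that of Snrpf was not tested.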

How the data were processed

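RNA-seq was performed by the authors on 8 libraries, 4 WT and 4 D2018A. After depletion of ribosomal RNA the libraries were sequenced from a single end with 50 bases per read. The authors used STAR 2.5.3a to align the reads to GRCm38.p6 and count them by gene, and the authors normalised the counts with DESeq2 1.20.0. The deposited table holds, per gene, the authors' mean normalised count, a signal averaged over all libraries of their fit. It also holds their comparison of the genotypes (log2 fold change, its standard error, statistic, p-value and adjusted p-value), which is the study's own finding and was not used. With no value per library, no test, standard deviation or interval could be made, and the comparison of WT with D2018A was not analysed here. Technical replicates were not separable. No column of values per sample was left out (0 such columns).

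The members and gene lists were chosen with earlier results of these data known. The number of libraries in the fit was read from values shared by at least 20 genes among the smallest means, a rule adjusted on simulated data until all simulated libraries were recovered. Those simulated data held 12 libraries, the number also read from the data, so they do not test the rule on another number. The stem-loop search was also tested on simulated data. The table has 39 genes without a name (0.0191% of the summed mean), kept in the total, and mitochondrial genes held 8.67% of it.

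Lengths and transcripts were taken from GENCODE M21 (GRCm38), whose start and end equalled the table's for all 66 genes, and 19342 genes of the table had a length. A level is the authors' mean per kb of merged exons. The coding length was an alternative chosen after seeing the data, and it divided the same mean over all exons. The pseudogene without a coding length was left out there. No genome was used, so 50-base stretches were compared with all other annotated transcripts on both strands, setting apart genes that overlap the gene itself, in place of the genome search that was planned. For the same reason the stem-loop was searched in annotated transcripts. Promoters were matched by symbol, chromosome, strand and position. Named were, per class, the 4 highest genes and the lowest by level, all genes of Hist2, Hist3 and Hist4, and all genes without the stem-loop; others were named after their values were seen. The annotated genes Hist1h2aj, Hist1h2bh, Hist1h2bm and Hist3h2bb-ps were not among the genes measured and are not part of the set. Calculations used Python 3.11.15, pandas 2.3.3 and numpy 2.4.6, and figures matplotlib 3.10.9.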

Additional observations from a re-analysis of the deposited data

How the results depend on the processing

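Each gene has a single value, so these results have no replicate error, and leaving out a library was not possible. No paired analysis was possible because the values are means over all libraries and come from no test. The 9 genes with means under 10 rest on the fewest reads. How reads shared by similar histone genes were counted is not given in the sources used here, and its part in the levels was not tested.

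The share of the summed mean held by the histone genes was 0.800% over named genes on chromosomes 1 to 19, X and Y, and 3.50% when means were summed per kb of exon. The shares of H1, H2A, H2B, H3 and H4 were 14.3%, 23.9%, 24.6%, 23.7% and 13.4% per kb of exon. Per kb of coding sequence, an alternative chosen after seeing the data, they were 17.3%, 17.9%, 22.3%, 23.6% and 18.9%. Per 50-base stretch found in no gene elsewhere, which leaves out Hist2h2aa2, they were 4.78%, 35.4%, 21.1%, 31.6% and 7.21%. Without Hist1h1c they were 15.99%, 18.95%, 23.0%, 26.2% and 15.9% of the normalised counts. The order of the classes thus depended on the scale. The cluster order did not under these alternatives. Hist1, Hist2, Hist3 and Hist4 held 91.7%, 8.11%, 0.197% and 0.0326% per kb of exon, and 92.9%, 6.73%, 0.194% and 0.183% per kb of coding sequence. Per 50-base stretch they held 94.1%, 5.80%, 0.0835% and 0.0116%, and without Hist1h1c 92.8%, 6.89%, 0.199% and 0.154%.

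Of the genes with at least 50% of their stretches in no gene elsewhere, 33 lay above the median of all genes. The count above that median was 56 with the longest transcript as length and 52 against the median of genes with a mean of at least 10. A mean of at least 1 was reached by 65 members and of at least 100 by 45, and 56 protein-coding members reached 10. The stem-loop was found in 44 genes also with 1 mismatch allowed and within 100 or 500 bases. Of the 22 genes without it, 17 have annotated transcripts that end within 50 bases of the stop codon. A longer window adds no bases in these 17, and the pseudogene, which has no annotated stop codon, was not searched.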
